A study of Mus musculus with 18 samples.

Results

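The endoplasmic reticulum (ER) stress genes described here are Hspa5, Hsp90b1, Calr, Pdia4, Dnajb9, Herpud1, Sdf2l1, Xbp1, Atf4 and Ddit3. They were chosen by symbol, and all 10 stand among the 13784 genes of each of the authors' deposited tables. Bulk RNA was sequenced from the cortex of mice of 4 to 6 months in 4 groups: astrocyte-specific Chd8 conditional knockout (cKO) given lipopolysaccharide (LPS; 5 samples), control given LPS (5 samples), cKO given saline (4 samples) and control given saline (4 samples). LPS, a bacterial outer membrane component that triggers innate immunity, was injected into the abdomen at 5 mg/kg, and tissue was taken 72 hours later. Chd8 encodes a chromatin remodeller. The driver of the astrocyte deletion, the alleles of the controls and the sex of the mice are not given in the sources used here. The labels do not say whether each sample is a separate mouse, so p-values measure the spread between these samples. The design asks how loss of Chd8 in astrocytes changes cortical expression at baseline and under neuroinflammation.

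The unfolded protein response answers a load of unfolded protein in the ER through the membrane sensors IRE1, PERK and ATF6. IRE1 splices the Xbp1 mRNA, cleaved ATF6 enters the nucleus, and PERK phosphorylates eIF2α, which slows translation while favouring that of ATF4. These factors raise ER chaperones, folding enzymes and degradation factors, and prolonged ATF4 activity induces Ddit3, which encodes the pro-apoptotic factor CHOP. Gene-level values do not separate spliced from unspliced Xbp1 and do not report translation of ATF4. In brain the response is known from protein misfolding, ischaemia and inflammation.

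Promoter sequence is shown for the 4 members in which a known stress motif was found, because such motifs are known binding sites of factors of this response; a match here is a description only. Windows of 250 bases before to 50 after the gene start were taken from RefSeq (GRCm38.p6, an older build than the GRCm39 of the expression tables), and all 10 members matched. The ER stress response element (ERSE) was searched as CCAAT, 9 further bases and CCACG, and ERSE-II as ATTGG, 1 further base and CCACG. The unfolded protein response element (UPRE) was searched as TGACGTG and the amino acid response core as TGATGNAA, all on both strands. No matches overlapped in the members. Capitals mark matches, each stretch has 20 bases on either side, and letters run 5′ to 3′ along the gene's strand.
Hspa5, chr2:34771913-34772063, plus strand: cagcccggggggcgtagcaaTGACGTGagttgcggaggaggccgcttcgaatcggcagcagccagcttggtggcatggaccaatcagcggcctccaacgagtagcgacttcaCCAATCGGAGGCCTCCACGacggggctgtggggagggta
Hsp90b1, chr10:86705513-86705676, minus strand: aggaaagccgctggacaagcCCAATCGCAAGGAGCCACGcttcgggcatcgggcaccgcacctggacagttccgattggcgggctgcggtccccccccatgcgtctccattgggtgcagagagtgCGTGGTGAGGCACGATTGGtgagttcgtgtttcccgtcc
Calr, chr8:84847055-84847113, minus strand: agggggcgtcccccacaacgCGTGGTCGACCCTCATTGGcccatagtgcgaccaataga
Herpud1, chr8:94386297-94386407, plus strand: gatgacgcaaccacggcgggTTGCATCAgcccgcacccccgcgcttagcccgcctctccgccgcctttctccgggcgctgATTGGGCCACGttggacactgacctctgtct

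An exact match to the ERSE was found in Hspa5, Hsp90b1 and Calr, and in 39 of 32851 promoter windows (0.119%). Hspa5 holds it 65 to 47 bases before its start, Calr at 162 to 144 bases on the opposite strand, and Hsp90b1 holds 2 copies, at 212 to 194 bases and, on the opposite strand, at 107 to 89 bases. Herpud1 holds an ERSE-II 52 to 42 bases before its start, a motif in 0.0365% of windows, and an amino acid response core at 112 to 105 bases on the opposite strand, a motif in 3.97% of windows. A UPRE, in 2.01% of windows, lies 157 to 151 bases before the start of Hspa5. The windows of Pdia4, Dnajb9, Sdf2l1, Xbp1, Atf4 and Ddit3 held none of these exact letters.

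**Figure D1:**
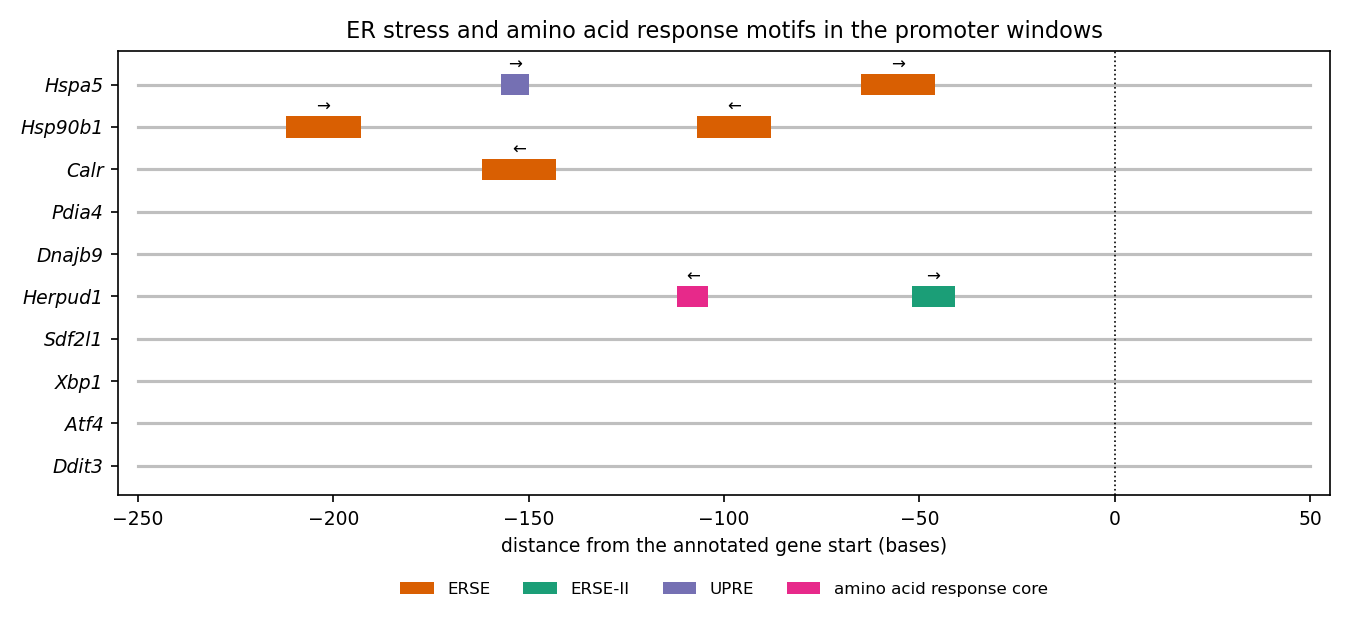
Position of motif matches in the promoter windows of the 10 genes, in bases from the annotated start (dotted line). Bars span each match and arrows give its strand relative to the gene; Hspa5, Hsp90b1 and Calr hold an ERSE and Herpud1 an ERSE-II.

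The deposited values are per gene and comparison, so the depth of single libraries is unknown and no spread between samples is shown; group levels below are estimates back-calculated from each fold change and its mean log2 CPM (counts scaled to library size), and cKO and control levels come from tables normalised separately. In whole cortex, Chd8 had a log2 fold change of 0.020 ± 0.051 (SE, as in all values below) between cKO and control after LPS in the authors' deposited table (false discovery rate, FDR = 0.901), so the bulk value does not check the deletion in astrocytes. With LPS, Chd8 itself rose by 0.45 ± 0.066 in cKO mice (FDR = 0.00597) and by 0.34 ± 0.079 in controls (FDR = 0.0312) in the authors' deposited tables. All 6 astrocyte and 5 excitatory neuron markers were measured, at a mean log2 CPM of at least 5.62 in the LPS comparison of cKO mice. None of 6 plasma cell markers, a cell type rich in XBP1 targets, was in the tables. Sex-linked transcripts, named after their values were seen, differed between groups: estimated log2 CPM of Xist was 5.91 in cKO LPS, 7.33 in control LPS, 4.35 in cKO saline and 7.47 in control saline. That of the Y-linked Ddx3y was 5.71 in cKO LPS, 3.68 in control LPS, 5.87 in cKO saline and -7.19 in control saline, so the control saline level lay far below the other 3. These transcripts thus differed between the genotypes. Between LPS and saline, Ddx3y differed in controls and Xist in cKO mice. The labels give no sex, and an unequal sex make-up of the groups cannot be told apart here from LPS or genotype. Its part in the results, and that of these transcripts, was not tested.

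No ER stress gene passed the FDR threshold of 0.05 in the authors' deposited tables (edgeR is named in the processing notes). For LPS against saline in cKO mice, 0 of 10 passed, where 19.5% of all genes did (10.9% higher, 8.52% lower). In controls 0 of 10 passed, where 9.76% of all genes did (6.46% higher, 3.31% lower). Between cKO and control after LPS 0 of 10 passed, and 0.00725% of all genes did. At an unadjusted p below 0.05, 4 members were lower and 0 higher after LPS in cKO mice, against 16.7% and 19.1% of all genes. In controls 1 was higher and 0 lower, against 16.2% and 12.7%. Between the genotypes after LPS 2 were lower and 0 higher in cKO, against 6.33% and 5.98%. The median log2 fold change over the members was -0.096 for LPS in cKO mice, -0.050 for LPS in controls and -0.10 for cKO against control after LPS, and that over all genes lay between -0.0027 and 0.0016.

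The intervals limit how large a change in the whole-cortex mean could have been missed, for the fold changes as deposited. They set no limit on a change within a single cell type such as astrocytes. In each of these comparisons the 95% interval of all 10 members lay within 1 log2 unit of 0. It lay within 0.5 log2 units for 8 of 10 members in each, against 68.0% of all genes for LPS in cKO, 71.2% for LPS in controls and 68.3% for cKO against control after LPS. The lowest bound was -0.92, for Sdf2l1 after LPS in cKO mice, and the highest was 0.49, for Ddit3 after LPS in controls.

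**Figure D2:**
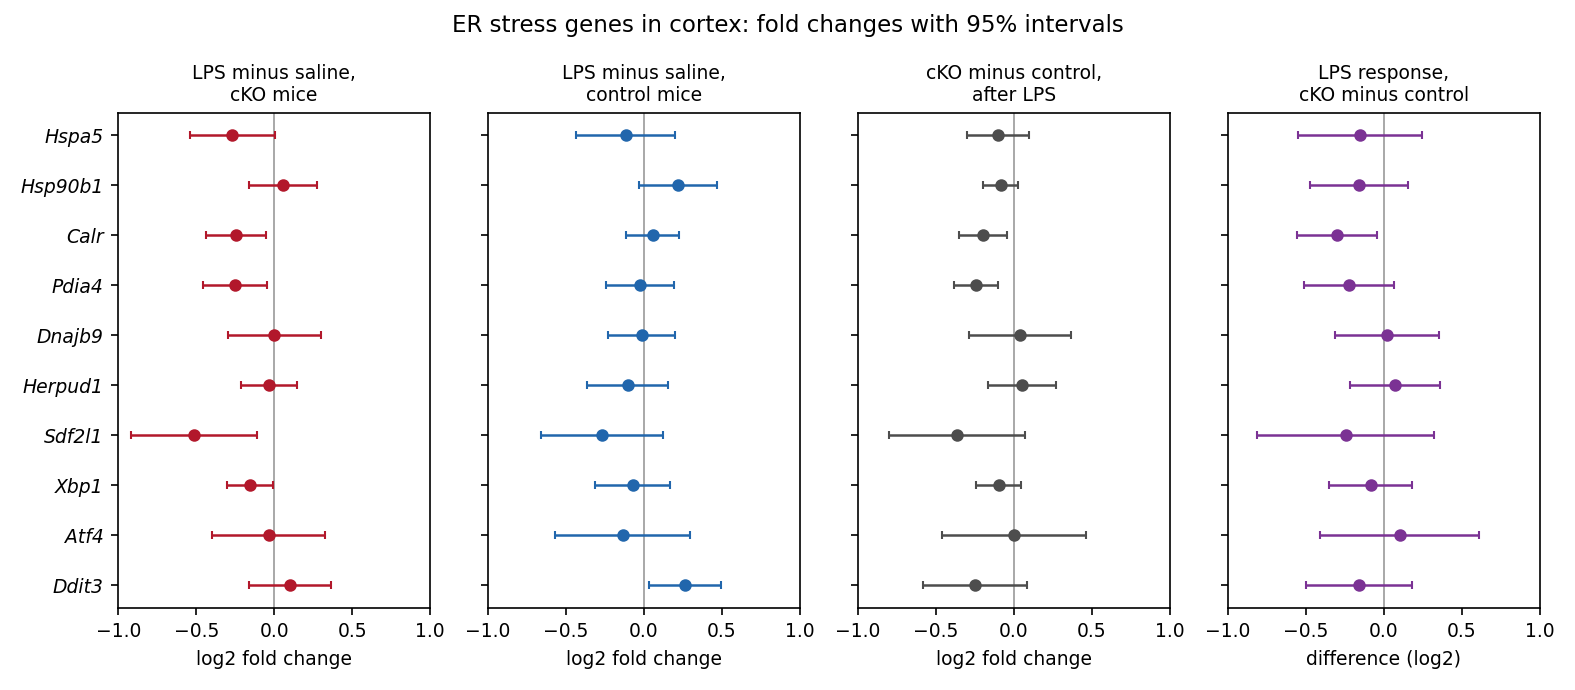
Log2 fold changes of the 10 genes with 95% intervals, for LPS against saline in cKO mice, LPS against saline in controls, cKO against control after LPS, and the difference between the LPS responses (cKO minus control). No point passed an adjusted threshold of 0.05, and no interval reached 1 log2 unit from 0.

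Among the ER chaperones, Hspa5 encodes BiP, the Hsp70 of the ER lumen that holds the sensors inactive until unfolded protein draws it away. Its estimated log2 CPM was 7.85 in cKO LPS and 8.11 in cKO saline, and 7.93 in control LPS and 8.05 in control saline. Its log2 fold change with LPS in the authors' deposited tables was -0.27 ± 0.12 in cKO mice (FDR = 0.146) and -0.12 ± 0.14 in controls (FDR = 0.630). Both values lay below 0 and both intervals included 0, at -0.54 to 0.0045 in cKO mice and -0.43 to 0.20 in controls. Hsp90b1 encodes GRP94, the ER member of the Hsp90 family. It did not share the sign of Hspa5: in the authors' deposited tables it had 0.058 ± 0.097 in cKO mice (FDR = 0.698) and 0.22 ± 0.11 in controls (FDR = 0.232). Its estimated log2 CPM was 8.24 in cKO LPS against 8.18 in cKO saline, and 8.31 in control LPS against 8.09 in control saline.

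Calr encodes calreticulin, a calcium-binding chaperone of glycoproteins, and is the third member with an ERSE. Its estimated log2 CPM was 8.16 in cKO LPS and 8.41 in cKO saline, and 8.33 in control LPS and 8.27 in control saline. With LPS it had -0.24 ± 0.087 in cKO mice (FDR = 0.0759) and 0.054 ± 0.076 in controls (FDR = 0.674) in the authors' deposited tables. The cKO LPS level was thus the lowest of the 4 estimates and the interval of its LPS response in cKO mice, -0.44 to -0.050, left out 0 before adjustment. Pdia4 encodes a protein disulfide isomerase (ERp72) that forms and rearranges disulfide bonds. Its values in the authors' deposited tables were -0.25 ± 0.091 with LPS in cKO mice (FDR = 0.0789) and -0.028 ± 0.098 in controls (FDR = 0.877). Estimated log2 CPM of Pdia4 was 5.67 in cKO LPS, 5.89 in control LPS, 5.93 in cKO saline and 5.92 in control saline. Thus 1 estimate lay below 3 close ones, with no error available. The interval of the difference between its LPS responses, given below, included 0. The control value of Pdia4 changed sign when a cubic trend on GC content and transcript length was removed with the median of all genes kept (0.0043).

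Sdf2l1 encodes an ER-lumen cofactor of BiP and DNAJ proteins. It had the lowest fold change of the members in each of the 3 tables: in the authors' deposited tables, -0.51 ± 0.18 with LPS in cKO mice (FDR = 0.0721) and -0.27 ± 0.18 in controls (FDR = 0.341). Its estimated log2 CPM was 2.63 in cKO LPS against 3.14 in cKO saline, and 2.96 in control LPS against 3.23 in control saline. Dnajb9 encodes ERdj4, a J-domain partner of BiP and a known XBP1 target. In the authors' deposited tables its log2 fold change with LPS was 0.0022 ± 0.13 in cKO mice (FDR = 0.993) and -0.016 ± 0.097 in controls (FDR = 0.933), a sign that turned in controls with that trend removed (0.083). Its 4 estimated group levels spanned 0.034 log2 units, the narrowest range of the members, against 0.60 for Sdf2l1. Estimated from different comparisons, the Dnajb9 level in cKO LPS was 4.78 or 4.74, so a span this narrow is not resolved. Herpud1, which encodes a membrane scaffold of ER-associated degradation and holds the ERSE-II shown above, had -0.033 ± 0.080 in cKO mice (FDR = 0.793) and -0.10 ± 0.12 in controls (FDR = 0.588) in the authors' deposited tables. Its estimated levels lay between a log2 CPM of 5.80 in control LPS and 5.90 in control saline.

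Of the transcription factors, Xbp1 encodes the factor that IRE1 activates by splicing. Its log2 fold change with LPS was, in the authors' deposited tables, -0.16 ± 0.066 in cKO mice (FDR = 0.122) and -0.071 ± 0.11 in controls (FDR = 0.702). Estimated log2 CPM of Xbp1 was 6.35 in cKO LPS and 6.50 in cKO saline, and 6.44 in control LPS and 6.51 in control saline. Atf4 encodes the effector of PERK and of the other eIF2α kinases. It had -0.035 ± 0.16 in cKO mice (FDR = 0.897) and -0.14 ± 0.19 in controls (FDR = 0.684) in the authors' deposited tables. These errors of Atf4 are among the widest of the members, with an interval of -0.57 to 0.30 in controls. Ddit3, the CHOP gene, had 0.10 ± 0.12 in cKO mice (FDR = 0.570) and 0.26 ± 0.10 in controls (FDR = 0.126), the highest value of the members in each, in the authors' deposited tables. Estimated log2 CPM of Ddit3 was 3.75 in cKO LPS and 3.65 in cKO saline, and 3.97 in control LPS and 3.71 in control saline.

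**Figure D3:**
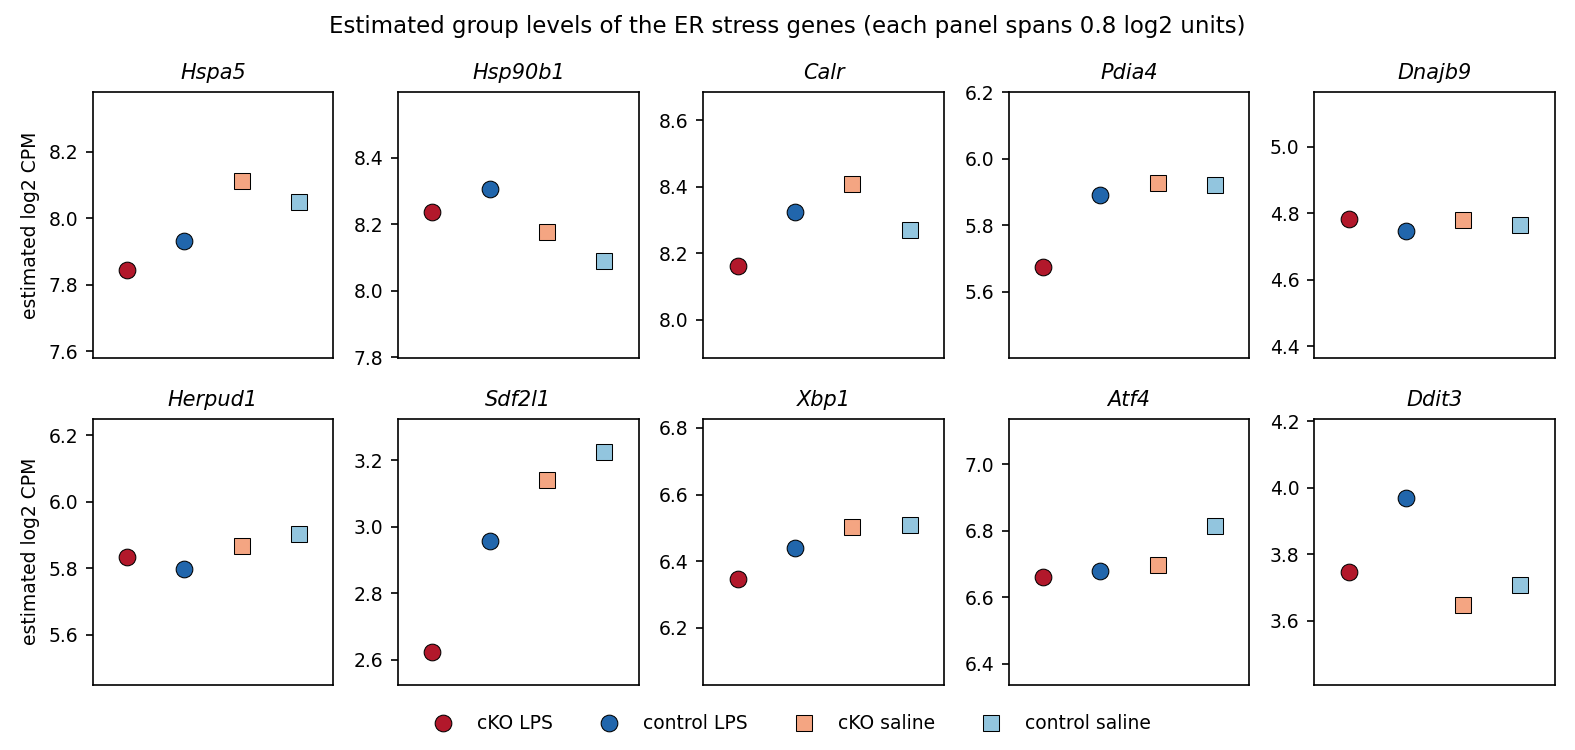
Estimated log2 CPM of each gene in cKO LPS, control LPS, cKO saline and control saline, back-calculated from the LPS tables; every panel spans 0.8 log2 units and no error is available. Sdf2l1 spanned 0.60 and Dnajb9 0.034 log2 units. Levels of cKO and control come from tables normalised separately.

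The calls for LPS in cKO mice lay near the threshold. With a cubic GC and length trend removed, Xbp1 (-0.26, adjusted p = 0.0294), Calr (-0.31, adjusted p = 0.0396) and Sdf2l1 (-0.64, adjusted p = 0.0396) passed, where 10.4% of all genes were called lower, but this fit moved the median of all genes to -0.039. The same fit with the median kept at -0.0013, a change made after these calls were seen, called no member. With the trend taken out as medians of bins, an alternative chosen after seeing the data, Sdf2l1 (-0.63, adjusted p = 0.0463) and Xbp1 (-0.23, adjusted p = 0.0471) passed, where 6.65% of all genes were called lower. Over all alternatives the adjusted p was 0.0396 to 0.0728 for Sdf2l1, 0.0294 to 0.125 for Xbp1 and 0.0396 to 0.0976 for Calr. At an FDR below 0.1, Sdf2l1, Calr and Pdia4 were called lower, where 13.5% of all genes were.

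Between cKO and control after LPS, Pdia4 and Calr were the members with the smallest p. Pdia4 had -0.24 ± 0.062 (FDR = 0.282, unadjusted p = 0.00369) and Calr -0.20 ± 0.067 (FDR = 0.329, unadjusted p = 0.0173) in the authors' deposited table. The authors' deposited table gave -0.37 ± 0.19 (FDR = 0.467) for Sdf2l1 and -0.25 ± 0.15 (FDR = 0.523) for Ddit3. The remaining 6 members lay between -0.10 for Hspa5 and 0.051 for Herpud1. For Atf4 the authors' deposited table gave 2.9e-05 ± 0.20 (FDR = 1.00), and its sign is not defined. In this comparison 7 of 10 members lay below 0, beside 49.5% of all genes. It shares its LPS samples with the comparisons above, so these values are not a separate observation.

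The LPS responses of the genotypes, which rest on separate samples, were then subtracted from each other on the log2 scale. No member passed after Benjamini-Hochberg adjustment over all genes (lowest adjusted p = 0.683), where 0.00725% of all genes did. For Calr the response in cKO mice minus that in controls was -0.30 ± 0.13 (interval -0.55 to -0.043, unadjusted p = 0.0220). It was the only member at an unadjusted p below 0.05; among all genes 3.50% were lower and 3.02% higher at that level. Pdia4 had a difference of -0.22 ± 0.15 (interval -0.52 to 0.066), Sdf2l1 -0.25 ± 0.29 and Hspa5 -0.15 ± 0.20. For Hspa5 the interval, -0.55 to 0.25, does not show that the genotypes responded alike. Intervals of 5 of 10 members stayed within 0.5 log2 units of 0, against 61.5% of all genes.

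The saline groups were set side by side only as an untested estimate from the authors' deposited tables. The median over the members of cKO minus control after saline was -0.016, with values from -0.12 for Sdf2l1 to 0.10 for Calr. The estimate for Pdia4 was -0.019, or 0.0072 from the group levels, and for Hspa5 0.050. For Calr the estimate after saline (0.10) and the measured value after LPS (-0.20) had opposite signs. The estimate is the value after LPS minus the difference of responses given above, so this is not a separate observation.

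The rest of the pathway was described with 6 lists of 98 further genes, of which 93 were measured. In the authors' deposited tables, 11 of these 93 rose and 7 fell after LPS in cKO mice, and 6 rose and 1 fell in controls; the background percentages are those given above. The genes called in both were Creb3l2, Eif2ak2, Ppib, Slc7a5 and Ssr4, which are 5 of 18 called in cKO mice and 5 of 7 called in controls. Over all genes, 725 were called in both, which are 27.0% of those called in cKO mice and 53.9% of those called in controls. The median log2 fold change over the 93 genes was -0.013 in cKO mice and -0.013 in controls. Endothelial markers moved with the treatment: 5 of 6 rose in each genotype, with summed log2 CPM of 8.01 in cKO LPS, 8.08 in control LPS, 7.16 in cKO saline and 7.10 in control saline. Of 6 microglial markers, 2 rose and 1 fell in cKO mice and 4 rose in controls, with summed log2 CPM of 8.21 in cKO LPS, 8.48 in control LPS, 7.99 in cKO saline and 7.97 in control saline. Of 5 excitatory neuron markers, 2 rose in each genotype, with summed log2 CPM of 11.1 in cKO LPS, 11.2 in control LPS, 10.8 in cKO saline and 10.8 in control saline. Of 6 astrocyte markers, 2 fell in cKO mice, and 1 rose and 1 fell in controls. Their summed log2 CPM was 10.92 in cKO LPS, 10.67 in control LPS, 10.9 in cKO saline and 10.66 in control saline. No choroid plexus marker passed (3 of 6 measured), but their summed log2 CPM was 4.47 in cKO LPS, 3.51 in control LPS, 6.87 in cKO saline and 6.84 in control saline. Their part in the list values was not tested, and in bulk tissue a change in the number of cells of a type and in RNA per cell cannot be told apart.

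Among the sensors, ER membrane factors like ATF6 and the proteases that cut ATF6, 1 of 8 measured genes passed in each genotype. Over all genes, 19.5% passed in cKO mice and 9.76% in controls. Creb3l2, an ER membrane factor that is released by cleavage like ATF6, rose by 0.67 ± 0.16 in cKO mice (FDR = 0.0192) and by 0.73 ± 0.18 in controls (FDR = 0.0377) in the authors' deposited tables. None of the genes for IRE1, PERK and ATF6 passed; for LPS in cKO mice Eif2ak3, the PERK gene, had -0.21 (FDR = 0.0534) and Atf6 had -0.21 (FDR = 0.0554) in the authors' deposited table, both named here after their values were seen. In controls these had -0.11 (Eif2ak3) and -0.086 (Atf6), and Ern1, the IRE1 gene, had -0.076 ± 0.10 in cKO mice (FDR = 0.614) and 0.26 ± 0.084 in controls (FDR = 0.0807) in the authors' deposited tables. Of the other eIF2α kinases and eIF2 genes 1 of 8 passed in each genotype: Eif2ak2, the interferon-induced kinase PKR that double-stranded RNA activates, rose by 0.58 ± 0.15 in cKO mice (FDR = 0.0300) and by 0.63 ± 0.15 in controls (FDR = 0.0318) in the authors' deposited tables.

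Of 19 other ER chaperones and folding enzymes, 1 rose and 3 fell after LPS in cKO mice, beside 10.9% and 8.52% of all genes. In controls 1 rose and 0 fell, beside 6.46% and 3.31%. Ppib, the ER cyclophilin that helps collagen fold, rose by 0.23 ± 0.055 in cKO mice (FDR = 0.0211) and by 0.27 ± 0.074 in controls (FDR = 0.0466) in the authors' deposited tables. The falls in cKO mice were those of Ero1lb, an oxidase that drives disulfide formation (-0.37 ± 0.075, FDR = 0.0127), Manf, a secreted ER stress protein (-0.35 ± 0.086, FDR = 0.0246), and Uggt1, which tests the folding of glycoproteins (-0.29 ± 0.058, FDR = 0.0127), in the authors' deposited table. In controls these had -0.15 ± 0.070 (Ero1lb), -0.091 ± 0.12 (Manf) and -0.030 ± 0.073 (Uggt1), and none passed in the authors' deposited table. The list's median was -0.12 in cKO mice and -0.030 in controls. Calr and Pdia4 had values near those of these genes in cKO mice without passing.

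Of 17 genes of ER-associated degradation, 1 rose and 1 fell in cKO mice, beside 10.9% and 8.52% of all genes. In controls 1 rose and 0 fell, beside 6.46% and 3.31%. Os9, a lectin that hands misfolded glycoproteins to the HRD1 ligase, rose by 0.25 ± 0.047 (FDR = 0.0108) and Edem3, a mannose-trimming factor, fell by -0.35 ± 0.059 (FDR = 0.00755) in cKO mice in the authors' deposited table. In controls Os9 had 0.14 ± 0.055 (FDR = 0.137) and Edem3 -0.15 ± 0.065 (FDR = 0.151) in the authors' deposited table. Syvn1, which encodes HRD1 itself, had 0.36 ± 0.12 in cKO mice (FDR = 0.0622) and rose by 0.39 ± 0.11 in controls (FDR = 0.0467) in the authors' deposited tables. Of 20 translocon and secretory genes, 2 rose and 1 fell in cKO mice and 1 rose in controls, beside the same shares of all genes. Ssr4, a translocon-associated protein, rose by 0.31 ± 0.075 in cKO mice (FDR = 0.0229) and by 0.28 ± 0.067 in controls (FDR = 0.0329) in the authors' deposited tables. Srpr, the receptor for the signal recognition particle, rose by 0.26 ± 0.066 in cKO mice (FDR = 0.0253) and had 0.22 ± 0.081 in controls (FDR = 0.114) in the authors' deposited tables. Spcs3, a signal peptidase subunit, had -0.39 ± 0.072 in cKO mice (FDR = 0.0102), a fall, and -0.26 ± 0.075 in controls (FDR = 0.0533), just short of the threshold, in the authors' deposited tables.

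The PERK, ATF4 and CHOP list was the longest, with 21 genes measured beside Atf4 and Ddit3. Of these, 5 rose and 2 fell in cKO mice, beside 10.9% and 8.52% of all genes, and 1 rose and 1 fell in controls, beside 6.46% and 3.31%. Nupr1, a small stress-induced nuclear protein, rose by 1.26 ± 0.25 in cKO mice (FDR = 0.0119) and had 0.40 ± 0.18 in controls (FDR = 0.168) in the authors' deposited tables. Ppp1r15a, the inducible GADD34 subunit that directs dephosphorylation of eIF2α, rose by 0.41 ± 0.095 in cKO mice (FDR = 0.0187) and had 0.28 ± 0.18 in controls (FDR = 0.326) in the authors' deposited tables. Shmt2, a mitochondrial serine enzyme, rose by 0.45 ± 0.12 in cKO mice (FDR = 0.0317) and had 0.20 ± 0.14 in controls (FDR = 0.394) in the authors' deposited tables. Slc7a5, a transporter of large neutral amino acids that brain endothelium also expresses, rose by 0.39 ± 0.11 in cKO mice (FDR = 0.0365) and by 0.53 ± 0.10 in controls (FDR = 0.0163) in the authors' deposited tables. Psat1, an enzyme of serine synthesis, had -0.12 ± 0.071 in cKO mice (FDR = 0.241) and -0.47 ± 0.090 in controls (FDR = 0.0151), where it fell, in the authors' deposited tables. The other calls in cKO mice, named after their values were seen, were a rise of the translation repressor Eif4ebp1 (0.68 ± 0.20) and falls of Gadd45a (-0.65 ± 0.19) and of Ppp1r15b, the constitutive counterpart of Ppp1r15a (-0.18 ± 0.055), in the authors' deposited table. In controls the authors' deposited table gave 0.14 ± 0.18 for Eif4ebp1, -0.25 ± 0.34 for Gadd45a and -0.15 ± 0.069 for Ppp1r15b, and none passed.

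The difference between the LPS responses passed for none of the 93 genes, and for 0.00725% of all genes. For Nupr1 it was 0.86 ± 0.42 (adjusted p = 0.752) and for Psat1 0.34 ± 0.15 (adjusted p = 0.699), so a call in 1 genotype and not in the other is not shown to be a difference between them. Between cKO and control after LPS none of the 93 passed in the authors' deposited table, where 0.00725% of all genes did. At an unadjusted p below 0.05, 5 were higher and 6 lower, beside 5.98% and 6.33% of all genes. The smallest p in each list belonged to Ddit4, a brake on mTOR (0.57 ± 0.13, FDR = 0.237), Uggt1 (-0.23 ± 0.068, FDR = 0.291), Ssr3 (0.16 ± 0.053, FDR = 0.312), Edem3 (-0.17 ± 0.058, FDR = 0.334), Ern1 (-0.30 ± 0.11, FDR = 0.336), and Nck1 (-0.20 ± 0.099, FDR = 0.441) in the authors' deposited table. Next to these in 5 of the lists stood Psat1 (0.36 ± 0.12), Manf (-0.22 ± 0.097), Spcs3 (-0.11 ± 0.059), Atf6 (-0.19 ± 0.081) and Eif2ak1 (0.12 ± 0.073) in the authors' deposited table.

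**Figure D4:**
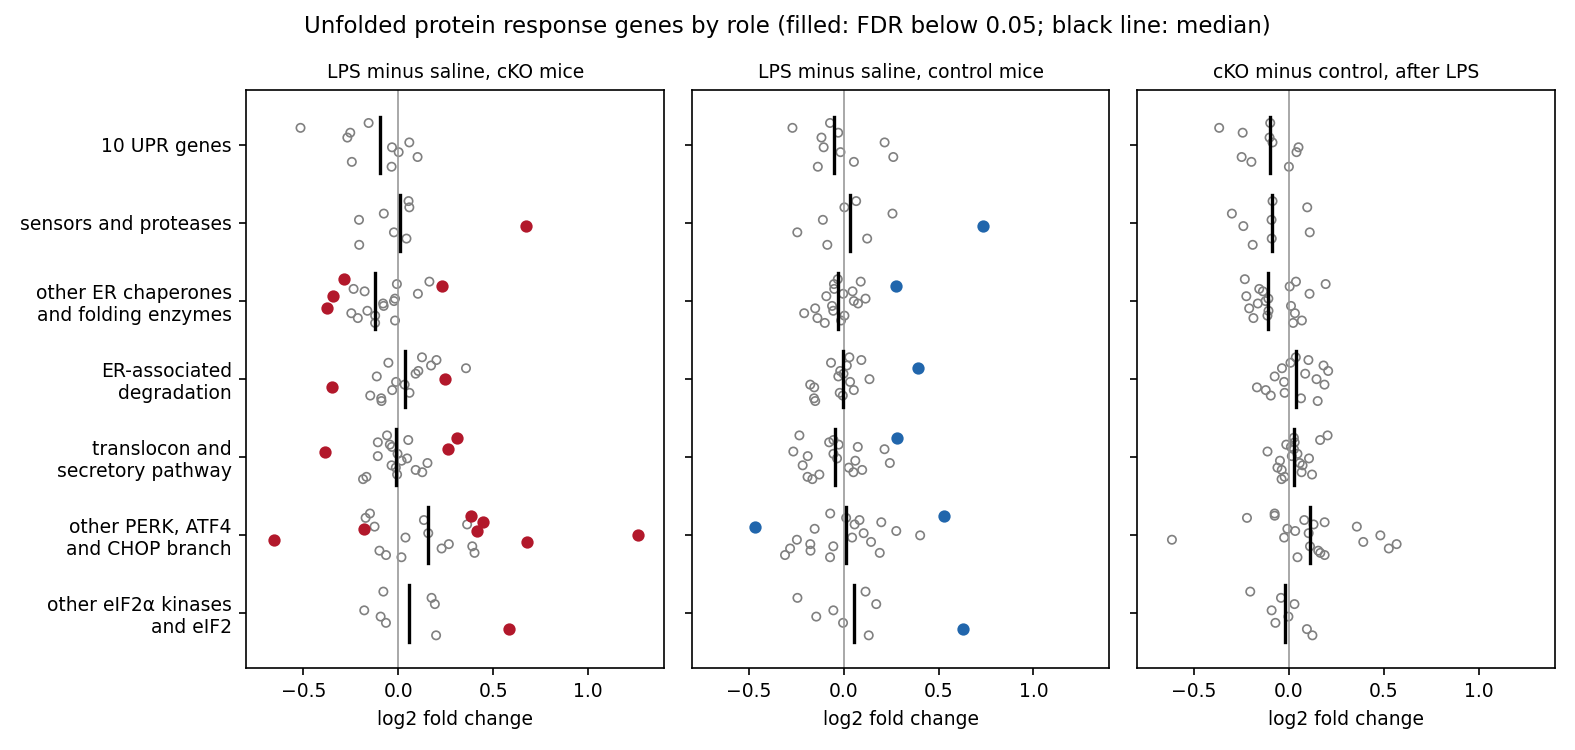
Log2 fold changes of the 10 genes and of the 6 pathway lists for LPS in cKO mice, LPS in controls and cKO against control after LPS; each circle is a gene, filled circles passed an FDR of 0.05 and black lines are medians. The 10 genes hold no filled circle, and the PERK, ATF4 and CHOP list holds 7 for LPS in cKO mice.

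The ERSE was also followed beyond the members. Of 37 genes with this motif in a promoter window, 16 stood in the tables, 13 of them not members. Of these 13, 2 rose and 0 fell after LPS in cKO mice in the authors' deposited table, beside 10.9% and 8.52% of all genes. In controls 1 rose and 0 fell, beside 6.46% and 3.31%. The gene in controls was Syvn1, which is also in the list of ER-associated degradation. The median log2 fold change over the 13 genes was 0.0088 in cKO mice and 0.13 in controls. Values ran from -1.24 to 0.36 in cKO mice and from -0.21 to 0.67 in controls.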

How the data were processed

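RNA from 18 cortex samples was compared in 3 tables of the authors' own comparisons. The submitters' processing notes name edgeR 3.30.3, RSEM, STAR, cutadapt 3.5 and GRCm39, without their order or the gene filter. For each gene the authors deposited, per the file headers, mean log2 CPM and log2 fold change, the F statistic (an open-ended score), and the p-value with its FDR. Per-sample values were not analysed here. The headers give no direction. Read as cKO minus control and LPS minus saline, group levels shared by tables differed with an SD over genes of 0.0503 and 0.0537, and in every other reading the larger of these SDs was at least 0.226.

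Dividing the size of each log2 fold change by the root of F gave its standard error. The 95% intervals use a t distribution whose degrees of freedom were solved from F and p (9.76 for LPS in cKO, 9.85 for LPS in controls and 8.66 for the genotypes after LPS). Group levels assume samples of equal weight. The difference of LPS responses used standard errors from the normal quantile of each p-value, a two-sided normal p and Benjamini-Hochberg adjustment over 13784 genes, and was tested on simulated data. The saline contrast is a point estimate from the 3 fold changes. Python 3.11.15 with scipy 1.17.1 was used.

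Members and lists were chosen with earlier results of these data known. The rule named all members and, per list and comparison, the called genes (at most 4 by p-value) or else the 2 with the smallest p-value; 1 gene so named is not reported here. Alternatives were an FDR of 0.1, a minimum fold change of 1.5, a mean log2 CPM of at least 1, centring, and removal of a GC and transcript length trend by a cubic fit, by that fit revised to keep the median, and by bin medians, both of these after seeing the data (GENCODE M21 transcripts, 99.6% of genes). Ero1a and Ero1b were matched by the older symbols Ero1l and Ero1lb. Protein sequences were not used here.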

Additional observations from a re-analysis of the deposited data

How the results depend on the processing

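No paired analysis was possible because the tables hold no values per sample, and for the same reason leaving out each replicate was not run and library depth is unknown. Of 36 alternative counts 9 moved by over 1.5 times; of the other 27, 25 were a 0 that stayed 0, which says little about stability. At an FDR of 0.1 the members called for LPS in cKO mice became 3. A cubic GC and length fit also called 3 and moved the median of all genes to -0.039; with that median kept, a revision made after seeing the data, it called 0. The count was 2 once bin medians took out the GC and length trend, an alternative chosen after seeing the data; the cause was not tested. Of the 93 pathway genes, those called lower became 11 in cKO mice and 5 in controls at an FDR of 0.1. With a minimum fold change of 1.5, those called higher became 3 in cKO mice and 2 in controls, and those called lower 1 and 0; by construction this leaves out small changes.

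Of 150 alternative fold changes of members, 135 kept their direction and their side of the threshold, 5 newly passed it (Sdf2l1, Xbp1 and Calr, given above) and 10 changed sign, all of them uncalled. For LPS in controls, Dnajb9 had 0.037 with the first cubic fit and 0.083 with the median kept, where Pdia4 had 0.0043, and by bin medians Pdia4 had 0.031. For cKO against control after LPS, Atf4 had -0.0016 when centred, -0.031 with the first cubic fit, -0.042 with the median kept and -0.056 by bin medians, where Dnajb9 had -0.0026 and Herpud1 -0.026. All 10 saline estimates, computed from group levels instead, moved by less than the standard error of the comparison after LPS; that of Pdia4 changed sign to 0.0072.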
